A study of Mus musculus with 6 samples.

Results

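The transcription factors that direct the secretory lineage of the gut and the Paneth cell within it were followed in bulk RNA-seq of sorted mouse Paneth cells. The set holds 10 named genes, Sox9, Atoh1, Spdef, Gfi1, Bhlha15, Tcf4, Klf4, Cdx2, Foxa3 and Tcf7l2, out of 55414 gene identifiers in the count table. They were taken by name, and all 10 passed the filter on low counts that left 9749 genes for testing. Paneth cells, the antimicrobial cells of the small intestinal crypt, were sorted by FACS from wild-type C57BL/6J mice. A group of 3 libraries came from mice fed standard chow (St_TNF) and a group of 3 from mice fed zinc depleted chow for 7 weeks (ZincDef_TNF). Mice of both groups had received tumor necrosis factor (TNF) 3 hours before sampling, and no library without TNF was analysed here. Although the series text plans for 4 biological replicates in each group, the labels name 3 libraries for each.

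Secretory cells of the intestine arise where Notch signalling is low and the bHLH factor Atoh1 can act. Downstream of Atoh1, the zinc finger repressor Gfi1 holds back endocrine genes and the ETS factor Spdef drives goblet and Paneth cell maturation. Paneth cell fate also depends on Wnt signalling at the crypt base, which acts through Tcf7l2 and requires Sox9. Gut papers often call the Tcf7l2 protein TCF4, whereas the gene with the symbol Tcf4 encodes the E protein E2-2, a general partner of bHLH factors. Bhlha15, also called Mist1, builds the secretory apparatus of cells that store granules. Klf4 and Foxa3 are linked to goblet cells and Cdx2 to intestinal identity as a whole.

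The libraries held 6139397 to 12772373 counts, and the alpha-defensins took 45.5% to 60.5% of them. For a gene with no counts the limit was set at 3 counts, or 0.235 to 0.489 CPM by library, where CPM is the count of a gene relative to the total of its library. The label was checked against markers: 6 Paneth cell genes, Lyz1, Mmp7, Itln1, Ang4, Defa24 and Defa30, together took 501490 to 624130 CPM in each library. The scaling factors of the TMM method, which balances libraries on the bulk of their genes, were 1.46 to 1.73 in standard diet replicates 1 and 2 and zinc depleted replicate 1, and 0.460 to 0.898 in the remaining 3 libraries. The split thus ran across the diets. Values are given below as CPM, a share of all counts, and as TMM-scaled CPM, a level relative to the other genes. In bulk samples, fewer cells of a type and less RNA per cell cannot be told apart.

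The 250 bases before the transcription start are shown for Atoh1, Bhlha15, Gfi1 and Spdef, because the first 3 shared their highest libraries while Spdef, among all pairs, ran most against Gfi1. They are RefSeq promoter sequences, 5′ to 3′ on the strand of the gene, and each matched the GRCm39 genome at 1 place. Atoh1 lies at chr6:64705859-64706108 on the plus strand, Bhlha15 at chr5:144126854-144127103 on the plus strand, Gfi1 at chr5:107872210-107872459 on the minus strand and Spdef at chr17:27947926-27948175 on the minus strand. The Gfi1 stretch is that of the canonical start, and RefSeq gives Gfi1 a further start upstream. The windows of Bhlha15 and Spdef reach 18 and 4 bases into the GENCODE transcript. Capitals mark E-boxes (CANNTG, the core that bHLH dimers bind) and the TCF/LEF core (CTTTGA, or its reverse complement), searched on both strands.
Atoh1: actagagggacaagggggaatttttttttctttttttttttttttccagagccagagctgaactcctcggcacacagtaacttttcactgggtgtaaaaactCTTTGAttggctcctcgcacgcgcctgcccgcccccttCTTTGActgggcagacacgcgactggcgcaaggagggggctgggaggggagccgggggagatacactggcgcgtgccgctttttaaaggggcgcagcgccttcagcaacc
Bhlha15: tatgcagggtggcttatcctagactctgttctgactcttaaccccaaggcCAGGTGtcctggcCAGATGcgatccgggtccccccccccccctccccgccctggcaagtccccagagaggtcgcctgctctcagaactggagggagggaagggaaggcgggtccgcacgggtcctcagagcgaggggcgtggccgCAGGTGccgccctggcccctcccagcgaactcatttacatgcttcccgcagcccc
Gfi1: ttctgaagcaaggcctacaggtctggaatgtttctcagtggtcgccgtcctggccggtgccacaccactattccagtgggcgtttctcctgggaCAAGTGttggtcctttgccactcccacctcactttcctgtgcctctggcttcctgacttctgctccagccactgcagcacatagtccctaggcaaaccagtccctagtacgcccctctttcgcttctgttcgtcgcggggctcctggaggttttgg
Spdef: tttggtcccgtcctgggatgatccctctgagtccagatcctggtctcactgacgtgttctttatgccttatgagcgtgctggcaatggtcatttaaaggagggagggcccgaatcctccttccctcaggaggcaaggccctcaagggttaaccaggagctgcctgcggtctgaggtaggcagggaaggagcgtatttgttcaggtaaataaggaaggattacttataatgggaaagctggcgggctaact

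The Bhlha15 promoter held 3 E-boxes, and 1 of them was CAGATG. At least 3 E-boxes were found in 12.2% of all 32851 RefSeq promoters of this length, and at least 1 in 66.2%. Atoh1 held no E-box and 2 TCF/LEF cores, a number that 1.37% of all promoters reached. Gfi1 held 1 E-box, and Spdef held neither motif. Of the 10 factors, 8 had a promoter in the RefSeq table, and Sox9 and Tcf4 had none. These matches describe the letters in the window and not binding.

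Per length, Spdef was the most abundant of the factors and Tcf4 the least. Levels between genes were compared as TPM, counts divided by the length of the canonical transcript with all libraries brought to an equal sum. Spdef had a mean of 17.7 TPM ± 12.7 (SD, n = 6) and ranged from 5.25 to 41.2 TPM. Foxa3 followed with 11.6 TPM ± 5.06 (SD, n = 6). Bhlha15, Atoh1, Sox9 and Cdx2 came next and lay close together, with mean levels of 7.99, 7.70, 7.55 and 6.47 TPM. A step separated these 6 genes from the remaining 4. Tcf7l2 reached 1.64 TPM, Klf4 1.55 TPM, Gfi1 0.827 TPM and Tcf4 0.207 TPM.

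The ranges over the 6 libraries overlapped between all 9 neighbours in this order. Such overlap leaves out that both genes were measured in the same library, so it cannot decide whether neighbours differ. Within libraries and with the canonical length, the order was firmer at 1 place, since Cdx2 exceeded Tcf7l2 in all 6. Spdef exceeded Foxa3 in 5 of 6 libraries and Foxa3 exceeded Bhlha15 in 5 of 6. Bhlha15 exceeded Atoh1 in 2 of 6, although its mean was higher. The low end depended on the length used. With the length of all exons of a gene, Klf4 exceeded Tcf7l2 in all 6 libraries, with means of 1.72 and 0.869 TPM. Cdx2 then exceeded Klf4, and Gfi1 exceeded Tcf4, in all 6. Among all genes, by mean TPM with the canonical length, Spdef ranked 593, Sox9 ranked 1402 and Gfi1 6816.

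**Figure D1:**
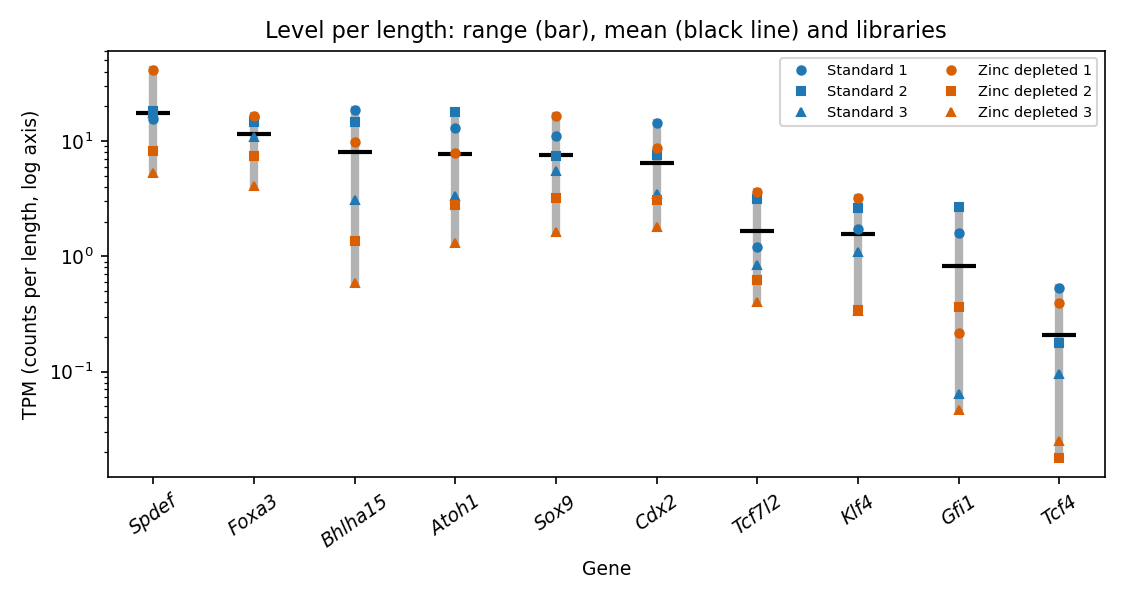
Level of each transcription factor per length in TPM on a log axis, with 1 point per library (blue standard diet, orange zinc depleted, shape by replicate), the range over the 6 libraries as a grey bar and the mean as a black line. Spdef has the highest mean at 17.7 TPM and Tcf4 the lowest at 0.207 TPM, and the bars of all neighbours overlap.

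In the edgeR quasi-likelihood test across all 9749 genes, none of the 10 factors was called as different between the diets (adjusted p under 0.05). Of all genes 0, or 0%, were called, so this does not show that the factors were unchanged. At an unadjusted p under 0.05 there were 0 of the 10 factors and 6.62% of all genes. That count depended on the libraries and the method. It was 3 without standard diet replicate 3 (Atoh1, Gfi1 and Bhlha15, where 1552 of 10151 genes passed). It was 2 with no low-count filter, where 1428 of 17790 genes passed, and 0 or 1 in each of the other 12 alternatives. Over those 12, the genes passing ran from 143 of 10146 (without standard diet replicate 1) to 2420 of 10010 (without zinc depleted replicate 1). On the TMM scale 4 factors had a positive and 6 a negative log2 fold change (zinc depleted over standard), and their median was -0.11, beside 0.00 for all tested genes. Without zinc depleted replicate 1 the split was 1 positive and 9 negative, with a median of -0.56 beside -0.11 for all genes. Without zinc depleted replicate 3 it was 6 positive and 4 negative, with a median of 0.08. With total counts only, 1 was positive and 9 were negative, with a median of -0.68 beside -0.66 for all tested genes. For no factor did the groups separate. On the TMM scale, 6.58% of all genes had every zinc depleted library below every standard diet library and 3.51% the reverse. In CPM these shares were 10.3% and 0.554%, and again 0 of the 10 factors were among them in either direction.

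Atoh1 (ENSMUSG00000073043, chromosome 6, 64706109 to 64708229, plus strand, a gene of 1 exon) is the switch into the secretory lineage. Its CPM was 39.9, 55.4 and 11.6 on standard chow, against 24.4, 9.83 and 4.85 on zinc depleted chow (replicates 1, 2 and 3). Standard diet replicates 1 and 2 were the highest libraries, but replicate 3 lay among the zinc depleted ones, so the groups overlapped. After TMM scaling it had 24.3 ± 12.0 CPM with standard diet and 14.2 ± 3.25 CPM with zinc depletion (SD, n = 3 each). Zinc depleted over standard, the log2 fold change of Atoh1 was -0.77 (edgeR, SE 0.44, adjusted p 0.681). It ranged from -1.02 to -0.34 with 1 library left out. It was -1.45 with total counts only.

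Gfi1 (ENSMUSG00000029275, chromosome 5, 107864523 to 107873902, minus strand), the repressor that acts below Atoh1, was sparse. It had 49, 68 and 3 counts on standard chow, against 9, 13 and 3 counts on zinc depleted chow. The counts of both replicates numbered 3 were at the limit that a count of 0 allows. Standard diet replicates 1 and 2 thus carried nearly all of the standard diet signal, and the third library of that group held as little as the lowest zinc depleted library. In CPM and after TMM scaling, Gfi1 had the widest range of the factors over the 6 libraries, 47.2-fold and 22.0-fold. The log2 fold change of -1.68 had an SE of 0.95 and an edgeR adjusted p of 0.681. Leaving out 1 library moved it from -2.67 (without zinc depleted replicate 2) to -0.80 (without standard diet replicate 2), and with total counts only it was -2.66.

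Spdef (ENSMUSG00000024215, chromosome 17, 27933326 to 27947929, minus strand), the maturation factor of goblet and Paneth cells, showed another pattern. It had 43.9, 50.7 and 55.2 CPM on standard chow, against 116, 26.4 and 17.7 CPM on zinc depleted chow. In CPM the standard diet libraries lay close together, inside the 6.54-fold range of the zinc depleted ones. This did not hold after TMM scaling, where the values were 25.4, 33.7 and 61.5 CPM against 79.4, 41.2 and 38.5 CPM. Both groups were then spread, and they overlapped because standard diet replicate 3 was the second highest library. In the test, Spdef had a log2 difference of 0.40 (edgeR, SE 0.46, adjusted p 0.805). Single libraries decided it: it was -0.0023 without zinc depleted replicate 1 and 0.90 without standard diet replicate 3. In zinc depleted replicate 1 the mucin gene Muc2 of goblet cells had 4532 CPM, against 130 to 1445 CPM elsewhere, and it was highest there on the TMM scale too. Fcgbp, Zg16, Tff3, Agr2 and Spink4, also goblet cell markers, were highest in other libraries in CPM. Among these markers only Clca1 shared its highest library with Muc2, zinc depleted replicate 1. The sum of 7 goblet cell markers was highest in that library in CPM, at 12746 against 5867 to 9010, but not after TMM scaling, where it was 8744 CPM there and 12758 CPM in zinc depleted replicate 3. The part of this in the Spdef value was not tested.

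Sox9 (ENSMUSG00000000567, chromosome 11, 112673009 to 112678586, plus strand), the Wnt-dependent factor required for Paneth cells, followed Spdef in its highest library. Its CPM was 67.9, 44.96 and 37.6 on standard chow, against 100.5, 22.3 and 11.8 on zinc depleted chow. The 3 standard diet libraries again lay inside the range of the zinc depleted ones. On the TMM scale the means were 37.0 ± 6.31 and 43.2 ± 22.8 CPM (SD, n = 3 each). Sox9 differed by 0.23 on the log2 scale (edgeR, SE 0.43, adjusted p 0.882), but by -0.16 with total counts only and -0.28 without zinc depleted replicate 1. A lncRNA on the opposite strand, BC006965, shares 542 exonic bases with Sox9 and had at most 1 count in any library.

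Tcf7l2 (ENSMUSG00000024985, chromosome 19, 55730188 to 55922091, plus strand), the DNA-binding partner of beta-catenin, was low. It had 7.22, 18.9 and 5.71 CPM on standard chow, against 22.0, 4.31 and 2.90 CPM on zinc depleted chow, with the highest library in either diet at more than 3 times the lowest. Its log2 fold change was 0.31 (edgeR, SE 0.51, adjusted p 0.863). The sign did not hold, since it was -0.12 with total counts only and -0.22 without zinc depleted replicate 1. Without standard diet replicate 2 it was 0.85.

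Bhlha15 (ENSMUSG00000052271, chromosome 5, 144127086 to 144131259, plus strand), the factor of the granule-storing cell, had the widest spread among the abundant members. It had 94.4, 74.4 and 17.9 CPM on standard chow, against 50.5, 7.94 and 3.60 CPM on zinc depleted chow. The libraries followed the order of their TMM factors, with standard diet replicates 1 and 2 highest, zinc depleted replicate 1 next and zinc depleted replicate 3 lowest. This order remained after TMM scaling, with 54.7, 49.5 and 20.0 CPM against 34.7, 12.4 and 7.83 CPM, a 6.98-fold range. The groups overlapped because standard diet replicate 3 lay below zinc depleted replicate 1. Its log2 difference between the diets was -1.16 (SE 0.58), with an edgeR adjusted p of 0.681 and an unadjusted p of 0.0692, the smallest among the factors. Leaving out zinc depleted replicate 1 gave -2.02, and leaving out zinc depleted replicate 3 gave -0.75. The adjusted p ranged from 0.117, in the first of these, to 1.00 over the 14 alternatives. The value was negative in all 14 alternatives, as were those of Atoh1 and Gfi1. Tecpr1, on the opposite strand, shares 2 exonic bases with Bhlha15 and had 24 to 151 counts.

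Klf4 (ENSMUSG00000003032, chromosome 4, 55527139 to 55532528, minus strand), a zinc finger factor of goblet cell differentiation, had 7.63, 11.6 and 5.41 CPM on standard chow, against 14.1, 1.75 and 1.80 CPM on zinc depleted chow. Zinc depleted replicate 1 was the highest library and the other 2 zinc depleted libraries were the lowest. Klf4 gave a log2 fold change of -0.11 (edgeR, SE 0.52, adjusted p 0.957), with -0.84 without zinc depleted replicate 1 and 0.24 without zinc depleted replicate 2. Foxa3 (ENSMUSG00000040891, chromosome 7, 18747209 to 18757471, minus strand), a forkhead factor, was the steadiest member. Its CPM was 48.2, 43.5 and 36.8 on standard chow, against 48.9, 25.4 and 14.5 on zinc depleted chow. After TMM scaling all 6 libraries lay between 27.9 and 41.0 CPM, a 1.47-fold range, against 1.91-fold or more for every other member. For Foxa3 the log2 fold change was 0.10 (edgeR, SE 0.36, adjusted p 0.940) on the TMM scale and -0.53 with total counts only.

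Cdx2 (ENSMUSG00000029646, chromosome 5, 147237615 to 147244091, minus strand), the homeobox gene of intestinal identity, had 47.4, 24.8 and 12.9 CPM on standard chow, against 28.6, 11.8 and 7.20 CPM on zinc depleted chow. TMM scaling left 14.4 to 27.5 CPM, with standard diet replicate 1 highest. Its log2 fold change was -0.12 (edgeR, SE 0.38, adjusted p 0.932), -0.84 with total counts only and 0.22 without standard diet replicate 1. Tcf4 (ENSMUSG00000053477, chromosome 18, 69476427 to 69822150, plus strand), the E protein gene, had 51, 14 and 14 counts on standard chow, against 52, 2 and 5 counts on zinc depleted chow. Each replicate numbered 1 held most of the counts of its group, and zinc depleted replicate 2 was within the limit for a count of 0. For Tcf4 the log2 fold change was -0.44 (edgeR, SE 0.76, adjusted p 0.868). It was -1.85 without zinc depleted replicate 1 and 0.17 without standard diet replicate 1.

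**Figure D2:**
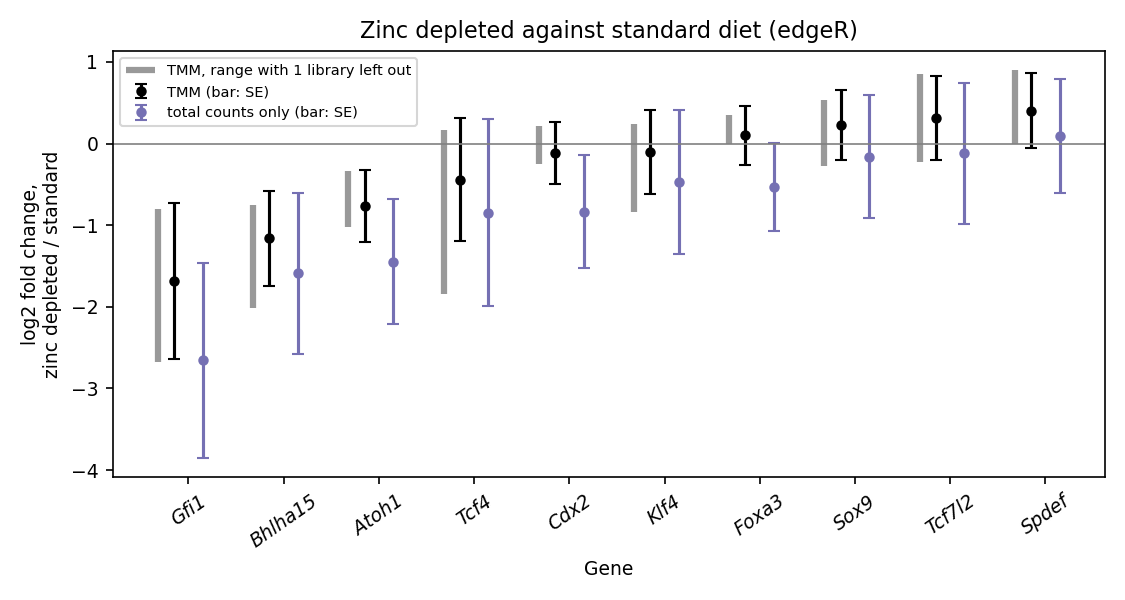
Log2 fold change of each factor, zinc depleted over standard diet, from edgeR with TMM scaling (black) and with total counts only (purple), with standard errors as bars, and the range of the TMM value with 1 library left out as a grey line. Gfi1, Bhlha15 and Atoh1 have the most negative TMM values, at -1.68, -1.16 and -0.77, and the values with total counts only lie below the TMM values for every factor.

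How closely the factors moved together across the libraries depended on the scaling. In CPM the sum of the 10 was 370, 337 and 185 CPM on standard chow, against 411, 112 and 65.0 CPM on zinc depleted chow. The 3 lowest sums were in the 3 libraries with the highest alpha-defensin shares, and the part of those shares in the sums was not tested. The TMM-scaled sum was far more even, at 214, 224 and 206 CPM and at 282, 175 and 141 CPM. As a description over 6 libraries, whose depth and composition enter every pair, the median Pearson correlation of log2 CPM over the 45 pairs of factors was 0.30 with TMM scaling, beside 0.00 over all pairs of tested genes. With total counts only the medians were 0.86 and 0.71. With TMM scaling 29 of the 45 pairs were positive, and with total counts only all 45 were.

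The closest pairs were Atoh1 with Gfi1 (0.87), Atoh1 with Bhlha15 (0.84) and Bhlha15 with Tcf4 (0.78) on the TMM scale, followed by Klf4 with Tcf7l2 (0.74) and Sox9 with Spdef (0.69). Gfi1 with Bhlha15 was lower (0.56). Spdef and Gfi1 stood most apart (-0.72), and Foxa3 ran against Atoh1 (-0.59) and Bhlha15 (-0.54). In CPM and after TMM scaling, Atoh1, Gfi1 and Bhlha15 shared their 2 highest libraries, standard diet replicates 1 and 2. This was not particular to them, since Hnf4a, Tcf12 and Tcf3 had the same 2 highest libraries on both scales. Those 2 libraries also lay at 1 end of the main axis of difference over all tested genes. This first principal component held 53.0% of the variance, with values of -53.0 and -47.8 there, against -30.8 to 81.6 in the other libraries. Spdef and Sox9 shared zinc depleted replicate 1 and standard diet replicate 3 as their 2 highest on the TMM scale. The genes most like a factor over the 6 libraries were Hepacam2, Inpp5b and Polg for Atoh1, Pgs1, Pnrc1 and Tmc5 for Spdef, Naa15, Itga6 and Kdm6b for Sox9 and Rrp1, Rhoq and Ubald1 for Bhlha15, with correlations between 0.98 and 1.00. With 6 libraries and 9749 genes, such values are a description only.

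**Figure D3:**
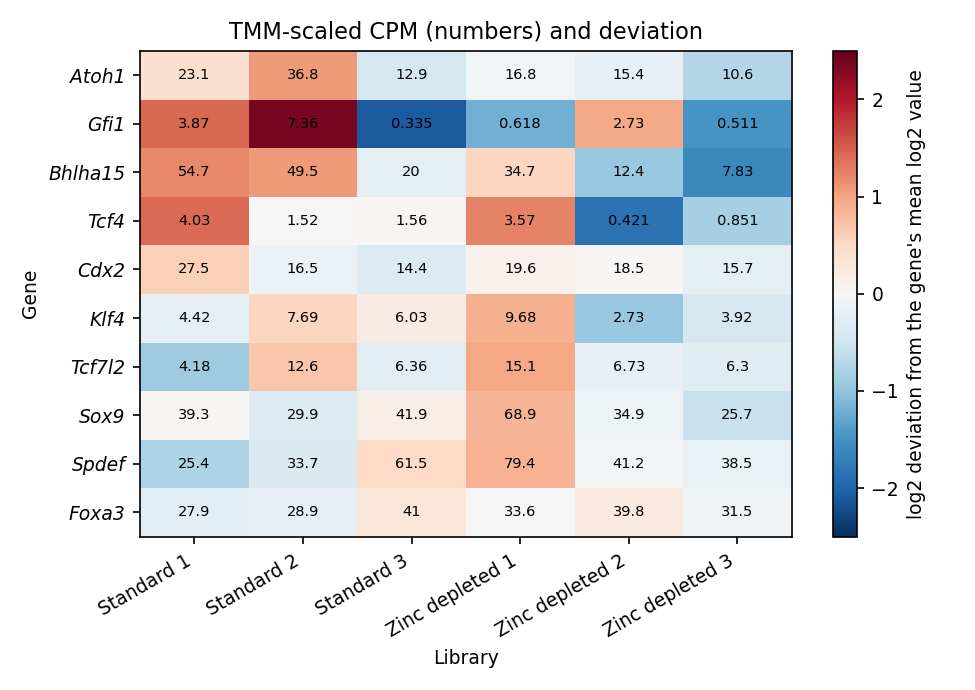
TMM-scaled CPM of the 10 factors in each library (numbers) and, in colour, the log2 deviation from the mean of the log2 values of that gene. Atoh1, Gfi1 and Bhlha15 are highest in standard diet replicates 1 and 2, Spdef and Sox9 in zinc depleted replicate 1, and Foxa3 stays between 27.9 and 41.0 CPM.

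Ratios between factors within a library do not depend on the scaling, and they were set against Spdef after the patterns had been seen. There were 2.15, 1.47 and 0.325 counts of Bhlha15 per count of Spdef on standard chow, against 0.436, 0.301 and 0.204 on zinc depleted chow. For Atoh1 the ratios were 0.910, 1.09 and 0.211 on standard chow, against 0.211, 0.372 and 0.274 on zinc depleted chow. In both cases standard diet replicates 1 and 2 lay above the other 4 libraries, and standard diet replicate 3 lay within or next to the range of the zinc depleted libraries. Gfi1 varied 40.2-fold against Spdef and Bhlha15 10.6-fold. The lowest Gfi1 ratio rested on 3 counts of Gfi1 in standard diet replicate 3, at the limit for a count of 0. Since Spdef was the factor that ran most against Gfi1, a wide ratio of these 2 follows from the choice of Spdef. Sox9 varied least, by 2.31-fold, between 0.668 and 1.55 counts per count of Spdef. Foxa3 varied by 2.60-fold. The balance of the factors thus differed between libraries of the same diet, whichever scaling is used.

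**Figure D4:**
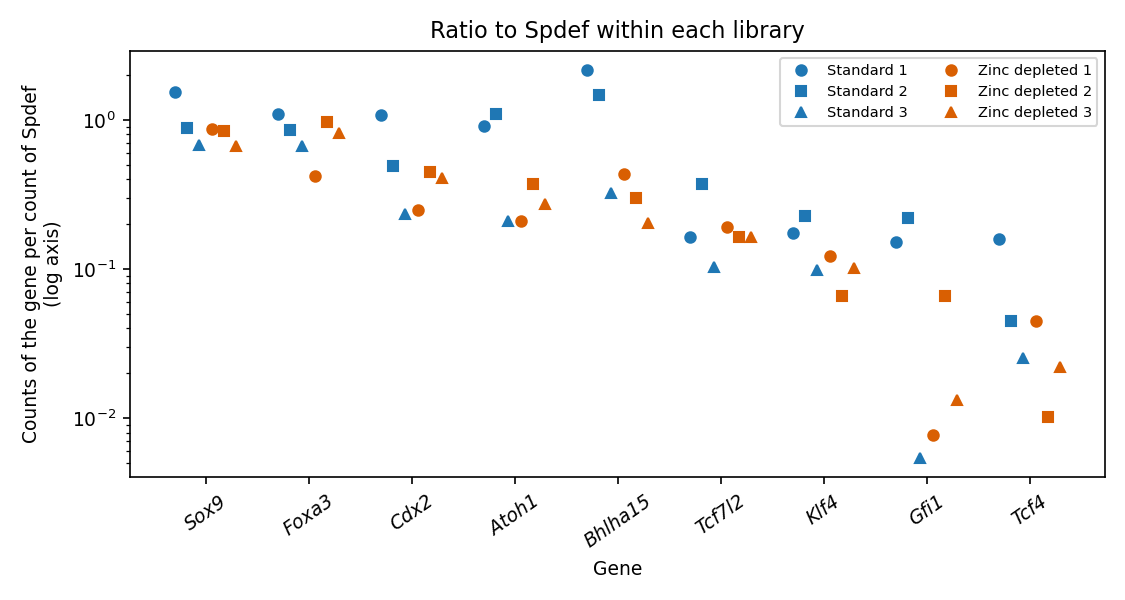
Counts of each factor per count of Spdef in the same library on a log axis, with 1 point per library (blue standard diet, orange zinc depleted, shape by replicate). For Bhlha15 and Atoh1, standard diet replicates 1 and 2 lie above the other 4 libraries, while Sox9 stays between 0.668 and 1.55.

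Markers of other crypt cells moved with some of these libraries. Stem cell markers (6 genes, led by Olfm4) summed to 1251 to 3875 CPM with standard diet and 525 to 729 CPM with zinc depletion, with standard diet replicate 1 highest. Proliferation genes (7 genes) summed to 91.8 to 227 CPM and 41.5 to 73.5 CPM. Tuft cell markers (8 genes) reached 839 CPM in standard diet replicate 2, the library with the most Atoh1 and Gfi1, against 30.7 to 211 CPM in the others. Enteroendocrine markers (10 genes) summed to 37.5 to 143 CPM and 28.1 to 35.5 CPM, with Nts at 0 in every library. Enterocyte markers (10 genes) summed to 64.5 to 282 CPM and 42.0 to 53.5 CPM. Immune markers (8 genes) summed to 66.3 to 156 CPM with Cd3e and Itgax at 0, and stromal markers (6 genes) to at most 7.98 CPM. The stem, proliferation, enteroendocrine and enterocyte sums were lower on zinc depleted chow without overlap in CPM, the direction in which 10.3% of all genes separated against 0.554% in the other. After TMM scaling all of these sums overlapped between the diets. The part of these cells in the values of Atoh1, Gfi1 and Bhlha15 was not tested.

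The genes around the factors were examined from lists, and none of their members was called by edgeR (adjusted p under 0.05). Upstream, Notch signalling had 9 of 12 genes tested, 2 with a positive and 7 with a negative log2 fold change, and a median of -0.74. Hes1, the Notch target that represses Atoh1, had 20.6, 7.17 and 5.41 CPM on standard chow, against 3.30, 1.75 and 2.58 CPM on zinc depleted chow. Its groups did not overlap in CPM, as for 10.3% of all genes in that direction. They overlapped after TMM scaling, with 11.9, 4.76 and 6.03 CPM against 2.27, 2.73 and 5.62 CPM. On that scale its log2 fold change was -1.12 (edgeR, SE 0.52, adjusted p 0.681). Adam10, the protease that cleaves Notch, had a log2 fold change of -0.04 (SE 0.42). Wnt signalling had 15 of 18 genes tested, 3 positive and 12 negative, and a median of -0.76. At an unadjusted p under 0.05 3 of these 15 were the Wnt targets Axin2, Lgr5 and Rnf43, all negative, beside 6.62% of all genes. In CPM all 3 were highest in standard diet replicates 1 and 2, while standard diet replicate 3 lay below zinc depleted replicate 1. Axin2, for example, had 44.7, 14.7 and 1.60 CPM on standard chow, against 4.20, 1.88 and 0.626 CPM on zinc depleted chow. Ctnnb1, which encodes the partner of Tcf7l2, and Wnt3, the ligand that Paneth cells secrete, had log2 fold changes of -0.03 (SE 0.37) and 0.10 (SE 0.35).

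Partners of the bHLH factors had 5 of 6 genes tested, 1 positive and 4 negative, with a median of -1.05. The E protein genes Tcf12 and Tcf3, whose products pair with Atoh1, were the most abundant. Tcf12 had 55.2, 30.8 and 11.2 CPM on standard chow, against 22.7, 5.92 and 2.82 CPM on zinc depleted chow, and its log2 fold change was -1.05 (SE 0.47). Tcf3 had 23.3, 16.9 and 6.31 CPM and then 8.51, 2.15 and 1.64 CPM, with a log2 fold change of -1.29 (SE 0.43). After TMM scaling Tcf3 had 13.5, 11.3 and 7.03 CPM on standard chow, against 5.84, 3.37 and 3.58 CPM on zinc depleted chow. Its groups then did not overlap, as for 6.58% of all genes in that direction, whereas those of Tcf12 overlapped on both scales. Both had an edgeR adjusted p of 0.681, and they were the 2 of 5 with an unadjusted p under 0.05, beside 6.62% of all genes. In CPM their highest and lowest libraries were those of Bhlha15.

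Intestinal transcription factors other than the 10 had 14 of 14 genes tested, 4 positive and 10 negative, with a median of -0.83. At an unadjusted p under 0.05 there were 3 of 14, Hnf4g, Foxa2 and Creb3l3, all negative, beside 6.62% of all genes. Hnf4a, a regulator of enterocyte genes, had a log2 fold change of -1.06 (edgeR, SE 0.51, adjusted p 0.681), and Elf3, an epithelial ETS factor, one of 0.36 (SE 0.45). Transcription factors of the secretory pathway and the endoplasmic reticulum had 9 of 9 tested, 4 positive and 5 negative, with a median of -0.23. Xbp1, which expands the secretory apparatus, had 212, 214 and 276 CPM on standard chow, against 566, 176 and 162 CPM on zinc depleted chow, highest in the same library as Spdef and Sox9. Its log2 fold change was 0.83 (edgeR, SE 0.47, adjusted p 0.681) and that of Atf4 was 0.09 (SE 0.47). Of the 12 enteroendocrine and tuft transcription factors 3 were tested, with a median of -0.59, and Pou2f3 and Prox1 were the most abundant.

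Downstream, all 10 Paneth cell products on the list were tested. All 10 had a positive log2 fold change on the TMM scale, with a median of 1.37, beside 50.0% of all tested genes. With total counts only, 8 of 10 were positive and the median was 0.42, beside 1279 of 9749 genes and -0.66. TMM-scaled values of Lyz1 and Defa24 ran in the inverse order of the TMM factors. They overlapped between the diets, for Lyz1 with 69261 to 180370 CPM on standard chow and 107510 to 373190 CPM on zinc depleted chow. The part of the scaling in these values was not tested. Lyz1 had a log2 fold change of 1.16 (SE 0.86) and Defa24 one of 1.21 (SE 0.91), with edgeR adjusted p of 0.710 and 0.714. Secretory genes reported as targets of Spdef, Atoh1 or Bhlha15 had 10 of 11 tested, 7 positive and 3 negative, with a median of 0.50. Muc2 had a log2 fold change of 0.91 (SE 0.83), and Spink4, a secreted goblet and Paneth cell product, one of 0.54 (SE 0.58) that was -0.22 with total counts only. In CPM, Muc2 was high in zinc depleted replicate 1 alone, with 1445, 1233 and 317 CPM on standard chow, against 4532, 239 and 130 CPM. Zinc depleted replicates 2 and 3 thus lay below every standard diet library. At an unadjusted p under 0.05 there were 3 of 10 Paneth cell products and 1 of 10 secretory targets, all positive, beside 6.62% of all genes.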

How the data were processed

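RNA-seq of FACS-sorted Paneth cells was analysed in 6 libraries, 3 per diet. The authors deposited raw read counts per Ensembl gene. Per the labels and the submitters' processing notes, single-end Element AVITI reads were trimmed with Trimmomatic 0.39 and aligned with STAR 2.7.10a to mm39. The sources used here do not give the counting program or its use of strand, so reads of antisense genes cannot be told apart. Symbols, positions and lengths were looked up by identifier in GENCODE M39 for GRCm39 (54749 of 55414 found).

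The main test was edgeR's quasi-likelihood test (version 4.0.16, under R 4.3.3) after TMM scaling, with filterByExpr and diet as the only term, two-sided, with Benjamini-Hochberg adjustment over 9749 genes at 0.05. The SE is the absolute log2 fold change divided by the square root of F. A prior count of 2 was added for log2 CPM. The procedure was tested on simulated data whose changes were larger than the estimates of the factors, so it does not show the power for them. The factors and the gene lists were chosen with earlier results of these data known. All 10 factors were to be named, with the 2 most abundant genes of each list, any gene called, and the 3 genes most like Sox9, Atoh1, Spdef and Bhlha15 with a mean log2 CPM of at least 2. Axin2, Lgr5, Rnf43, Hnf4g, Foxa2, Creb3l3 and the goblet cell markers besides Muc2 and Spink4 were named after their values were seen. Alternatives were DESeq2 1.42.0, limma-voom (limma 3.58.1), RLE, total counts, scaling without alpha-defensins, other filters, a replicate block, union exon length and leaving out each library. Promoters came from the RefSeq table on GRCm38.p6 and were matched to GRCm39. No pair of libraries within a group agreed within sampling noise (chi-square per degree of freedom of at least 15.3). The limit of 3 counts reflects counting error alone, whereas SE values include the spread between libraries.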

Additional observations from a re-analysis of the deposited data

How the results depend on the processing

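The log2 fold changes of the 10 factors were recomputed under 14 alternatives each, and no alternative called a factor. Of these 140 values, 127 kept their direction and 13 changed it. None of the 13 was in Atoh1, Gfi1 or Bhlha15. They were in the other factors, whose main values lay between -0.44 (Tcf4) and 0.40 (Spdef). With total counts only, Sox9 became -0.16, Foxa3 -0.53 and Tcf7l2 -0.12, and the median of the 10 factors moved from -0.11 to -0.68. Over the fits with 1 library left out, that median ranged from -0.56, without zinc depleted replicate 1, to 0.08, without zinc depleted replicate 3. With 1 library left out, the values ranged from -0.28 to 0.54 for Sox9, -0.0023 to 0.90 for Spdef, -1.85 to 0.17 for Tcf4, -0.84 to 0.24 for Klf4, -0.25 to 0.22 for Cdx2, -0.00015 to 0.34 for Foxa3 and -0.22 to 0.85 for Tcf7l2. The median correlation of the factors moved from 0.30 to 0.86 with total counts only. The number of all genes called, 0 with edgeR (645 at an unadjusted p under 0.05), was 76 without the low-count filter and 10 with DESeq2. It ranged from 0 to 28 with 1 library left out, and the 28 came without standard diet replicate 3. The cause of these changes was not tested.

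Libraries with the same replicate number did not deviate together in every case (correlations of deviations from the group means of 0.15, -0.06 and 0.25). Libraries with different numbers gave -0.28 to 0.25. With 3 libraries per group, these values cannot decide whether the numbers pair the samples, and the labels do not state a pairing. With the replicate block, 0 genes and 0 of the 10 factors were called, and Bhlha15 had a log2 fold change of -1.32 (edgeR adjusted p 0.308). At an unadjusted edgeR p under 0.05, 962 genes and 1 of the 10 factors passed with the block, against 645 genes and 0 factors without it. Levels per length changed their order only among Bhlha15, Atoh1, Sox9 and Cdx2, and with union exon length between Tcf7l2 and Klf4. At most 4 factors were at another place. The counts of Gfi1 and Tcf4, down to 3 and 2 per library, limit what can be said of them.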
